A study of Homo sapiens with 16 samples.

Results

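The 10 genes described here code for proteins that ERK signalling induces and that, with the exception of the transcription factor ETV5, act back on receptor or kinase activity: the phosphatases DUSP4, DUSP5 and DUSP6, the Sprouty proteins SPRY1, SPRY2 and SPRY4, the SPRED proteins SPRED1 and SPRED2, and PHLDA1. They were taken by symbol, from the Ensembl gene IDs of the deposited table, as 10 of its 22445 genes, and all 10 passed the filter on low values. The cells were Molm14, a line from acute myeloid leukaemia that carries a rearranged KMT2A gene, grown in RPMI with serum and antibiotics. The 4 groups were DMSO (the vehicle), iDOT1L (EPZ5676 at 0.16 uM, an inhibitor of the histone methyltransferase DOT1L), iEZH2 (GSK126 at 0.3 uM, an inhibitor of the histone methyltransferase EZH2) and Combo (both compounds at these doses), each treated for 7 days with medium and compound renewed on day 4. Bulk RNA-seq gave 4 libraries per group, numbered 1 to 4 in the labels, which do not say whether the libraries of a group came from separate cultures, so p-values measure the spread between these libraries only. A single line was used, so nothing here speaks to other leukaemias.

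RAS-MAPK signalling runs from growth factor receptors through RAS to the kinases RAF, MEK and ERK, and in myeloid leukaemia cells the receptor FLT3 is one of its main inputs. Active ERK switches on genes whose products damp the pathway: nuclear DUSP4 and DUSP5 and cytoplasmic DUSP6 remove phosphate from ERK and related kinases, and Sprouty and SPRED proteins act upstream, at the level of receptors, RAS and RAF. Because their transcripts follow ERK activity, several of these genes serve as expression readouts of the pathway. Protein phosphorylation was not measured in these libraries, so the values below are transcript levels only.

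Levels are normalised counts, that is, read counts that the authors scaled between libraries, recovered from their variance-stabilised log2 values. The estimated depth was 20.6 to 27.2 M reads per library. All 8 myeloid markers checked were in the table (CD33, SPI1, CEBPA, MPO, LYZ, FLT3, CSF1R and FCGR1A). Their summed level was 28040 to 29415 in DMSO, 35381 to 39272 in iDOT1L, 24142 to 28222 in iEZH2 and 36773 to 46408 in Combo. The markers did not go one way: between DMSO and Combo the mean of LYZ went from 2463 ± 177 (SD, n = 4) to 15958 ± 4612 and that of MPO from 862 ± 144 to 5237 ± 536, while FLT3 went from 9243 ± 1167 to 3464 ± 352 and FCGR1A from 820 ± 88.1 to 727 ± 64.3. In iEZH2 library 4 stood apart, with 2288 for MPO against 872 to 941 in the other 3 and 6541 for LYZ against 3418 to 3698. Markers of T cells (1 of 3 measured here), B cells (3 of 3) and erythroid cells (2 of 3) summed to at most 31.3, 141 and 5.06 in any library, those of epithelial cells (3 of 3) to at most 605. Fibroblast markers (3 of 3) summed to 56.1 to 120 in DMSO, 124 to 254 in iDOT1L, 77.6 to 261 in iEZH2 and 280 to 339 in Combo. The share of counts from the mitochondrial genome was 1.66% to 2.5% in DMSO, 1.8% to 2.83% in iDOT1L, 1.85% to 3.2% in iEZH2 and 2.66% to 3.54% in Combo. The marker sums and the mitochondrial share moved with treatment beside the results below, and their part in those results was not tested. In bulk RNA, fewer cells of a type and less RNA per cell cannot be told apart.

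Promoter sequence from RefSeq (GRCh38.p14) was matched for 7 of the 10 genes, in 11 windows of 250 bases before a transcript start. The 3 Sprouty genes among the 10 are shown because these paralogues, described side by side below, spanned high to low levels. Each line gives bases of the window that overlap no annotated exon, on the gene's own strand. They lie at chr4:123396545-123396794 (plus strand) for SPRY1, chr13:80341127-80341376 (minus strand) for SPRY2 and chr5:142324418-142324497 (minus strand) for SPRY4. Capitals mark a match to the EGR site GCGGGGGCG, here on the opposite strand.
SPRY1: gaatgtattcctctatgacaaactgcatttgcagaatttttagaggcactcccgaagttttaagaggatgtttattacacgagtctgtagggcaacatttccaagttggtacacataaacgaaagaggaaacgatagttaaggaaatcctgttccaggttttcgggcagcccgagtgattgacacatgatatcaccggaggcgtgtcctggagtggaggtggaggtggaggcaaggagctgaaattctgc
SPRY2: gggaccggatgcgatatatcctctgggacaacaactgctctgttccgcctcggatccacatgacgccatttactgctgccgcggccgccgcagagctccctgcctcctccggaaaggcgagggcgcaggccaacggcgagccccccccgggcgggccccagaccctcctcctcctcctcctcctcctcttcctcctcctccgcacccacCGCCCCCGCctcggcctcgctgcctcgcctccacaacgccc
SPRY4: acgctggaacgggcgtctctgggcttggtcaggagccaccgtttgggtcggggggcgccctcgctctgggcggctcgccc
The GC content of the whole window was 45.6% for the SPRY1 window shown, 70.4% for SPRY2 and 65.6% for SPRY4. The median over all 35116 promoters was 58.0%. Windows not shown differed from these, with 68.0% for SPRY1 and 62.4% and 41.2% for SPRY2. 4 motifs were searched on both strands: the ETS core CCGGAAG (held by 8.52% of all promoters), the cyclic AMP response element TGACGTCA (1.65%), the AP-1 site TGANTCA (6.57%) and the EGR site (4.72%), none of which contains another. Besides the SPRY2 match, 1 ETS core and 1 EGR site were found in a downstream SPRY1 window that begins in an annotated exon. The windows of SPRY4, SPRED1, SPRED2, DUSP6 and PHLDA1 held none of the 4. Those of SPRED1, DUSP6 and PHLDA1 also begin in an annotated exon, and that of SPRY4 reaches one after 80 bases. The windows of these 4 genes lie within the annotated span of the gene, so sequence before that span was not searched for them. These are letter matches, and binding was not measured.

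In DMSO the 10 genes covered a wide range of levels. Per kb of exon, DUSP6 was the highest at 374 ± 59.1 normalised counts (SD, n = 4), followed by SPRY2 at 277 ± 16.9. ETV5 (174 ± 6.48) and SPRED2 (160 ± 7.62) lay within their spread of each other, as did SPRED1 (77.2 ± 8.67) and DUSP5 (70.8 ± 7.22). SPRY4 (24.0 ± 2.07), PHLDA1 (15.1 ± 4.02), SPRY1 (6.32 ± 1.68) and DUSP4 (3.65 ± 0.647) were the lowest. Among the 10 genes, then, the DUSP and Sprouty families each held a high and a low member per kb, DUSP6 and DUSP4, and SPRY2 and SPRY1. Family members outside the 10, such as DUSP7, were not ranked.

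**Figure D1:**
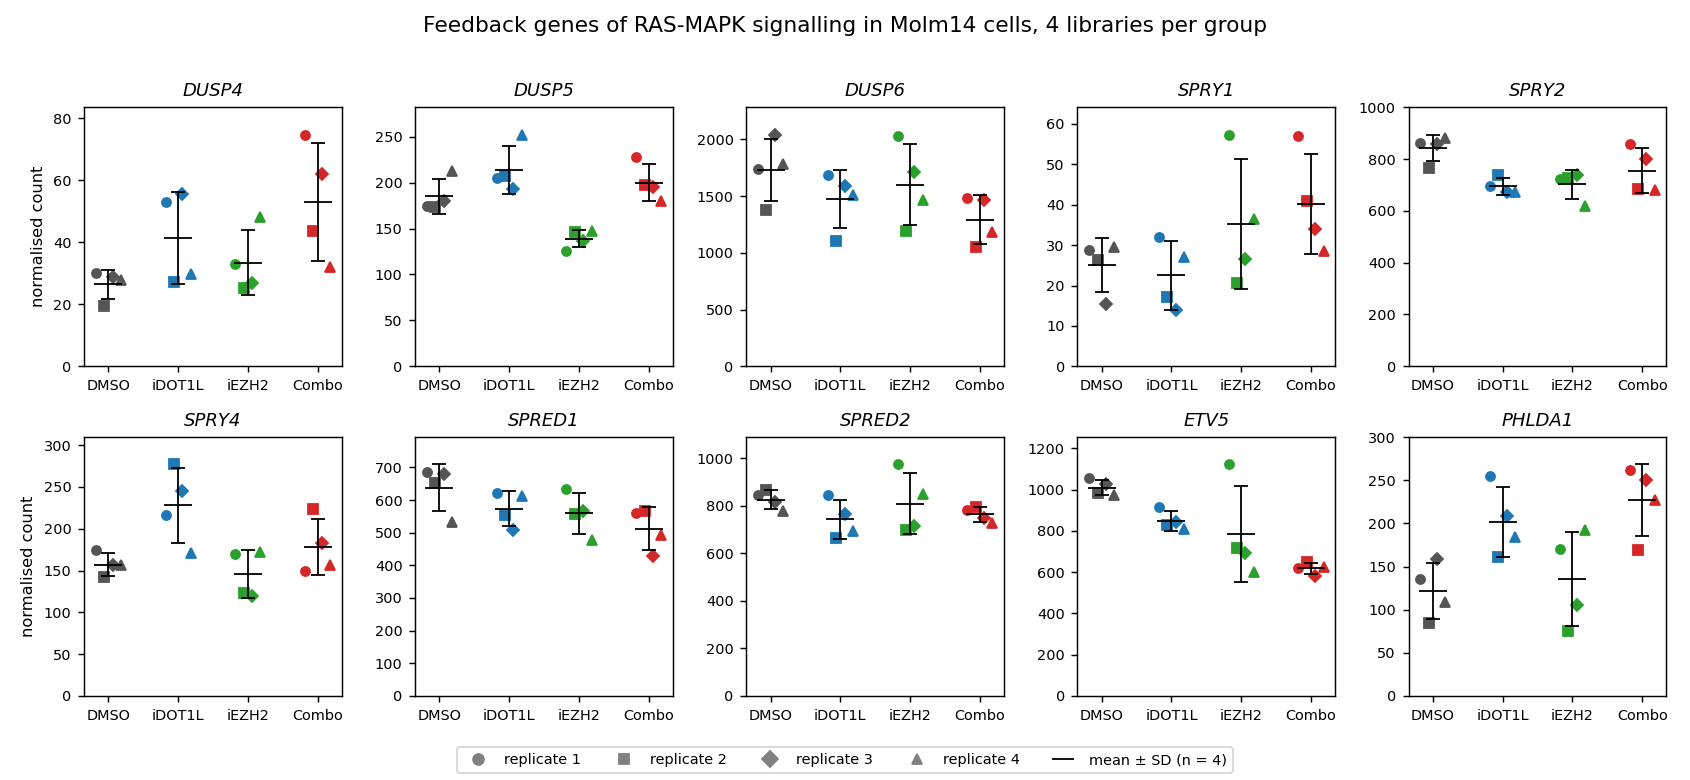
Normalised count of each of the 10 feedback genes (vertical axis, linear, starting at 0, scaled per gene) in the 16 libraries, grouped by treatment, with the mean and SD of 4 libraries. ETV5 steps down to 582 to 648 in Combo from 972 to 1055 in DMSO, while DUSP4 and PHLDA1 lie higher in Combo than in any DMSO library.

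In the main test 2 of the 10 feedback genes rose and 1 fell in Combo, and the other 7 were not called against DMSO in any treatment. A gene was called at a Benjamini-Hochberg adjusted p under 0.05 in limma, fitted over all 22331 genes tested. In Combo against DMSO 3 of the 10 genes were called, in a comparison that called 16% of all genes: PHLDA1 and DUSP4 rose (7.22% of all genes rose) and ETV5 fell (8.8% fell). The ETV5 call held in all 8 fits that left out 1 library. The call of DUSP4 was lost in 7 of these fits and that of PHLDA1 in 4. No feedback gene was called for iDOT1L against DMSO, where 6.25% of all genes were called, and none for iEZH2 against DMSO, where 3.35% were. Some intervals in these comparisons excluded equal means all the same and are given per gene below. The median log2 difference of the 10 genes was -0.15 for iDOT1L, -0.12 for iEZH2 and -0.00 for Combo, beside medians of 0.01, 0.02 and 0.03 over all genes. These comparisons share the 4 DMSO libraries. Between treatments, DUSP5 and SPRY4 were higher in iDOT1L than in iEZH2 (2 of 10, with 6.94% of all genes called and 3.88% higher). DUSP5 was higher in Combo than in iEZH2 (1 of 10, with 3.81% called and 2.08% higher). None was called for Combo against iDOT1L (2.58% called), though the intervals of SPRY1 and ETV5 excluded equal means.

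Same-numbered libraries of DMSO, iDOT1L and iEZH2 deviated together from their group means. For the 3 comparisons among these groups, a fit with a block for the replicate number is therefore also given. That fit held all 16 libraries, so the Combo libraries also entered its replicate effects and its spread. The blocked fit called PHLDA1 (higher) and SPRY2 (lower) in iDOT1L against DMSO, with 12.2% of all genes called, 5.69% higher and 6.53% lower, and DUSP5 and ETV5 (both lower) in iEZH2 against DMSO, with 9.76% called and 5.89% lower. For iDOT1L against iEZH2 it called DUSP5, SPRY4 and PHLDA1, all higher, with 14.3% called and 7.35% higher. For Combo the pairing is not settled. The block there also called DUSP6 and SPRED1 against DMSO, both lower, with 24.6% of all genes called and 13.3% lower.

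**Figure D2:**
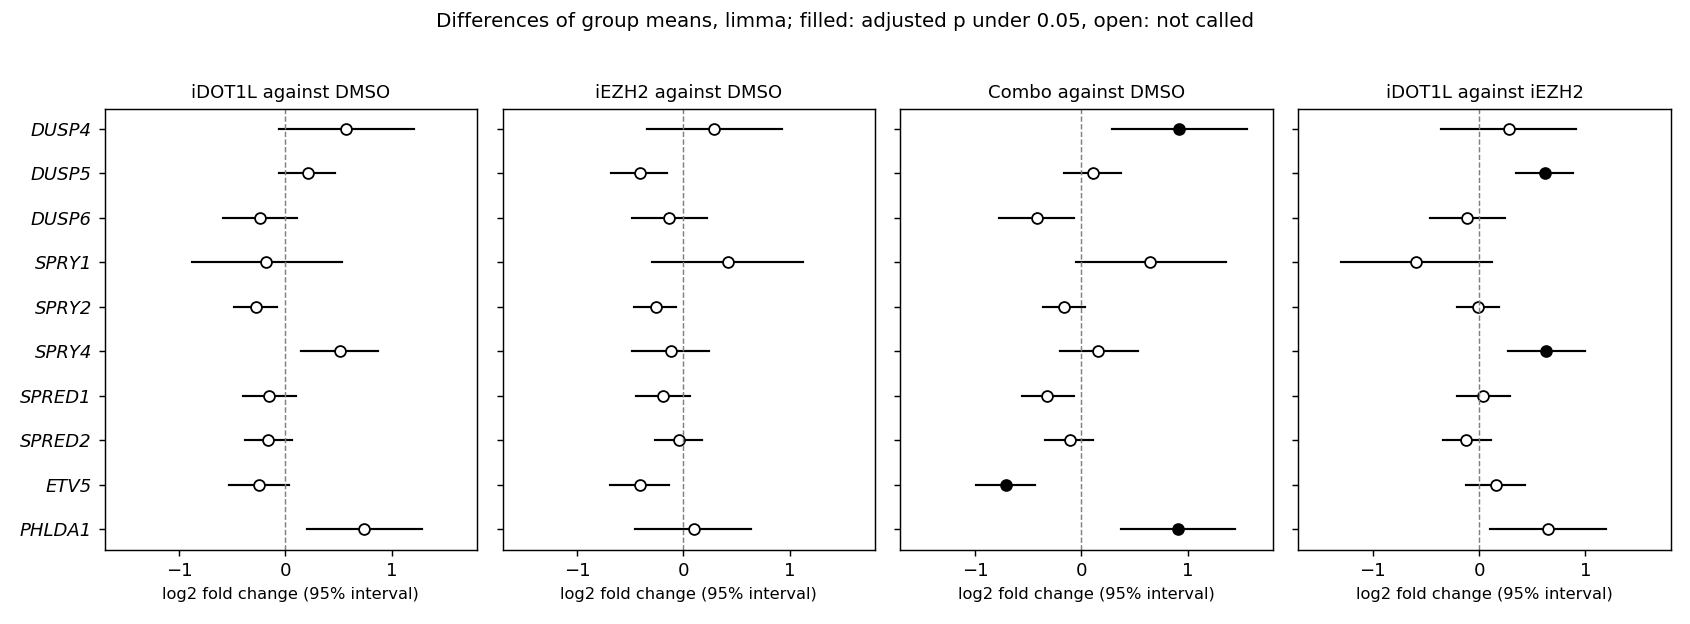
Log2 difference, with the 95% interval from limma, for the 10 feedback genes. The panels show iDOT1L, iEZH2 and Combo against DMSO, and iDOT1L against iEZH2. In Combo against DMSO the interval of ETV5 runs from -0.99 to -0.43. Those of DUSP4 (0.29 to 1.56) and PHLDA1 (0.37 to 1.45) lie above 0.

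DUSP6 (ENSG00000139318, chr12:89347232-89353271, minus strand, GRCh38) codes for the cytoplasmic phosphatase that is specific for ERK. Its counts in libraries 1 to 4 were 1737, 1376, 2041 and 1782 in DMSO and 1688, 1106, 1588 and 1514 in iDOT1L. They were 2033, 1197, 1711 and 1467 in iEZH2 and 1482, 1048, 1462 and 1184 in Combo. Library 2 was the lowest in each of the 4 groups, and the ranges of all groups overlapped. The difference between Combo and DMSO was -0.42 ± 0.17 on the log2 scale (SE; 95% interval -0.77 to -0.07), a 1.34-fold lower mean. It did not pass in the main test (adjusted p = 0.0965). Without DMSO library 2 it was -0.53 and passed (adjusted p = 0.0475). With the replicate block and all libraries the difference of -0.42 passed too (adjusted p = 0.000566). Whether the numbers pair the Combo libraries is not settled. iDOT1L differed from DMSO by -0.24 (-0.59 to 0.11; adjusted p = 0.502, or 0.0545 with the block) and iEZH2 by -0.13 (-0.48 to 0.22; adjusted p = 0.778). Exons of DUSP6 overlap the annotated antisense gene AC024909.2: 38.5% of the 31-base words of DUSP6 transcripts occur in other transcripts on the opposite strand and 0.0% on the same strand. The sources used here do not say whether counting used strand, and without it reads of the 2 genes cannot be told apart there.

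DUSP5 (ENSG00000138166, chr10:110497838-110511544, plus strand) codes for a nuclear phosphatase of ERK. It held 175, 173, 180 and 213 normalised counts in DMSO and 205, 207, 193 and 252 in iDOT1L. In iEZH2 it held 126, 146, 136 and 147, and in Combo 228, 197, 195 and 180. All 4 iEZH2 libraries lay below every library of the other 3 groups. DUSP5 was 1.54-fold higher in iDOT1L than in iEZH2 (log2 difference 0.62 ± 0.13 SE, interval 0.35 to 0.88, adjusted p = 0.0042), with the highest adjusted p at 0.0215 when any 1 of the 8 libraries was left out. Combo was 1.44-fold higher than iEZH2 (0.52 ± 0.13, interval 0.26 to 0.79, adjusted p = 0.0224). That call was lost without Combo library 1 (0.0714), Combo library 3 (0.0559), iEZH2 library 1 (0.0788) or iEZH2 library 3 (0.0657), and when only the 2 groups were fitted (0.0869). The difference between iEZH2 and DMSO was -0.41 ± 0.13 (-0.68 to -0.15), with an adjusted p of 0.0859 in the main test and 0.0379 with the replicate block. Combo (0.11, interval -0.16 to 0.37) and iDOT1L (0.21, interval -0.06 to 0.47) were not called against DMSO.

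DUSP4 (ENSG00000120875, chr8:29333064-29350668, minus strand) is a further nuclear phosphatase, of ERK and of stress kinases. With 38.6 normalised counts on average over the 16 libraries it was among the thinnest measured of the 10 genes. It held 30.0, 19.6, 28.7 and 27.8 in DMSO, 52.9, 27.1, 55.6 and 29.9 in iDOT1L, 33.0, 25.3, 26.9 and 48.3 in iEZH2, and 74.7, 43.7, 62.1 and 31.9 in Combo. Every Combo library exceeded every DMSO library, but the Combo values spread by more than 2-fold. Combo was 1.89-fold higher than DMSO (0.92 ± 0.30 SE, interval 0.29 to 1.56, adjusted p = 0.0444). The call was lost without any one of Combo libraries 1, 2 or 3 or DMSO libraries 1 to 4 (adjusted p between 0.0515 and 0.141) and under quantile normalisation (0.77, adjusted p = 0.0682). iDOT1L differed from DMSO by 0.57 (-0.06 to 1.21; adjusted p = 0.346) and iEZH2 by 0.29 (-0.34 to 0.93; adjusted p = 0.71).

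SPRY2 (ENSG00000136158, chr13:80335976-80340951, minus strand), one of the Sprouty inhibitors of receptor signalling, was the most abundant Sprouty gene. Its counts were 862, 767, 857 and 883 in DMSO and 694, 739, 674 and 672 in iDOT1L. The iEZH2 libraries held 721, 728, 737 and 620, and the Combo libraries 857, 684, 799 and 681. Both single treatments lay wholly below DMSO, and Combo overlapped all groups. iDOT1L was 1.21-fold lower than DMSO (-0.28 ± 0.09 SE, interval -0.48 to -0.08), with an adjusted p of 0.0992, or 0.0395 with the replicate block. iEZH2 was 1.2-fold lower (-0.26 ± 0.09, interval -0.46 to -0.07), with an adjusted p of 0.152, or 0.0575 with the block. The difference in Combo was -0.16 (-0.36 to 0.04; adjusted p = 0.28). The interaction, Combo minus iDOT1L minus iEZH2 plus DMSO, was 0.38 ± 0.13 for SPRY2 (unadjusted p = 0.0108, adjusted p = 1.0). SPRY2 was 1 of 848 genes, or 3.8% of the 22331 tested, with an unadjusted p under 0.05 for the interaction in limma. No gene passed after adjustment.

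SPRY4 (ENSG00000187678, chr5:142310427-142326455, minus strand), another Sprouty inhibitor, held 175, 142, 157 and 156 normalised counts in DMSO and 216, 277, 245 and 171 in iDOT1L. It held 170, 123, 120 and 172 in iEZH2 and 150, 223, 183 and 156 in Combo. In iDOT1L 3 of 4 libraries lay above all DMSO and iEZH2 libraries, and the fourth did not. SPRY4 was 1.55-fold higher in iDOT1L than in iEZH2 (0.63 ± 0.17 SE, interval 0.27 to 1.00, adjusted p = 0.0307). The call was lost without iDOT1L library 1 (0.0607), 2 (0.0935) or 3 (0.0948), without iEZH2 library 2 (0.103) or 3 (0.119), and when only the 2 groups were fitted (0.0851). Against DMSO iDOT1L was 1.43-fold higher (0.51 ± 0.17, interval 0.15 to 0.87, adjusted p = 0.0948, or 0.0678 with the block), and among the fits without 1 library it passed only without iDOT1L library 4 (0.64, adjusted p = 0.0434). Combo differed from DMSO by 0.16 (-0.20 to 0.53) and iEZH2 by -0.12 (-0.48 to 0.24), neither of them called.

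SPRY1 (ENSG00000164056, chr4:123396795-123403760, plus strand), the third Sprouty gene measured here, was scarce. Its counts were 28.9, 26.4, 15.3 and 29.6 in DMSO, 32.1, 17.1, 13.9 and 27.1 in iDOT1L, 57.3, 20.6, 26.5 and 36.4 in iEZH2, and 57.1, 40.8, 34.0 and 28.5 in Combo. The groups overlapped throughout. Combo differed from DMSO by 0.65 ± 0.34 SE (-0.05 to 1.36; adjusted p = 0.215) and from iDOT1L by 0.83 ± 0.34 (0.12 to 1.54; adjusted p = 0.215). The intervals of the single treatments against DMSO were wide, -0.88 to 0.53 for iDOT1L and -0.29 to 1.13 for iEZH2.

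The SPRED genes, whose products bind neurofibromin and block RAF activation, were not called in any comparison of the main test. SPRED1 (ENSG00000166068, chr15:38252326-38357249, plus strand) held 685, 653, 680 and 532 in DMSO, 621, 554, 507 and 614 in iDOT1L, 633, 557, 568 and 478 in iEZH2, and 562, 568, 429 and 492 in Combo. Only DMSO library 4 lay within the Combo range. Combo was 1.24-fold lower than DMSO (-0.32 ± 0.12 SE, interval -0.56 to -0.07, adjusted p = 0.0806), and without DMSO library 4 the difference was -0.40 and passed (adjusted p = 0.0368). iDOT1L (-0.15, interval -0.40 to 0.10) and iEZH2 (-0.19, interval -0.44 to 0.06) were not called.

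SPRED2 (ENSG00000198369, chr2:65310851-65432637, minus strand) had the smallest range of group means among the 10 genes, 0.16 on the log2 scale. Its counts were 844, 869, 817 and 777 in DMSO, 847, 666, 765 and 696 in iDOT1L, 975, 698, 715 and 849 in iEZH2, and 783, 795, 749 and 730 in Combo. All groups overlapped. The intervals of the 3 differences from DMSO ran from -0.38 to 0.06 for iDOT1L, -0.27 to 0.18 for iEZH2 and -0.34 to 0.11 for Combo.

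ETV5 (ENSG00000244405, chr3:186046308-186110318, minus strand) codes for an ETS-family transcription factor of the PEA3 group that is induced by ERK. It held 1055, 986, 1026 and 972 normalised counts in DMSO and 917, 828, 843 and 808 in iDOT1L. In iEZH2 it held 1123, 717, 695 and 600, and in Combo 618, 648, 582 and 626. DMSO, iDOT1L and Combo did not overlap, in descending order, while iEZH2 library 1 lay above every DMSO library and the other 3 below every iDOT1L library. Combo was 1.63-fold lower than DMSO (-0.71 ± 0.13 SE, interval -0.99 to -0.43, adjusted p = 0.001), and the adjusted p stayed at or below 0.00494 whichever of the 8 libraries was left out. iDOT1L was 1.19-fold lower (-0.25, interval -0.53 to 0.03, adjusted p = 0.346). iEZH2 was 1.33-fold lower (-0.41 ± 0.13, interval -0.69 to -0.13), with an adjusted p of 0.112, or 0.0279 with the replicate block. Without iEZH2 library 1 that difference was -0.59 and passed (adjusted p = 0.00129), and ETV5 was then also lower in iEZH2 than in iDOT1L (0.34 for iDOT1L against iEZH2, adjusted p = 0.0257). Combo was 1.37-fold lower than iDOT1L (-0.46 ± 0.13, interval -0.73 to -0.18, adjusted p = 0.0763, or 0.0221 when only the 2 groups were fitted) and 1.23-fold lower than iEZH2 (-0.30, interval -0.58 to -0.02, adjusted p = 0.279). The interaction was -0.05 (-0.44 to 0.35), where 0 means that the Combo difference equals the sum of the single ones. An exon of ETV5 overlaps DGKG, and 2.7% of the 31-base words of its transcripts also occur in other genes.

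PHLDA1 (ENSG00000139289, chr12:76025447-76033932, minus strand) codes for a pleckstrin-homology-like protein that is induced by ERK and has been described as a brake on receptor signalling. Its counts were 136, 84.0, 159 and 109 in DMSO and 255, 161, 209 and 184 in iDOT1L. They were 170, 74.9, 106 and 193 in iEZH2 and 262, 169, 250 and 227 in Combo. All iDOT1L and Combo libraries lay above all DMSO libraries, though iDOT1L library 2 (161) did so by little over DMSO library 3 (159). Library 2 was the lowest in every group, as it was for DUSP6. Combo was 1.88-fold higher than DMSO (0.91 ± 0.26 SE, interval 0.37 to 1.45, adjusted p = 0.0212). The call was lost without Combo library 1 (0.0612) or 3 (0.0614), or DMSO library 2 (0.0726) or 4 (0.0547). iDOT1L was 1.67-fold higher than DMSO (0.74 ± 0.26, interval 0.20 to 1.29), with an adjusted p of 0.108, or 0.00996 with the replicate block. iDOT1L was 1.57-fold higher than iEZH2 (0.65 ± 0.26), with an adjusted p of 0.162, or 0.0207 with the block. Combo differed from iEZH2 by 0.81 (0.27 to 1.36; adjusted p = 0.0968), which passed without iEZH2 library 4 (1.01, adjusted p = 0.0233). Between Combo and iDOT1L the difference was 0.17 (-0.38 to 0.71), and between iEZH2 and DMSO 0.10 (-0.45 to 0.64). Exons of PHLDA1 overlap the annotated antisense genes AC011611.3 and AC011611.4, and 17.2% of its 31-base words occur in other transcripts on the opposite strand, with the same limit as for DUSP6.

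**Figure D3:**
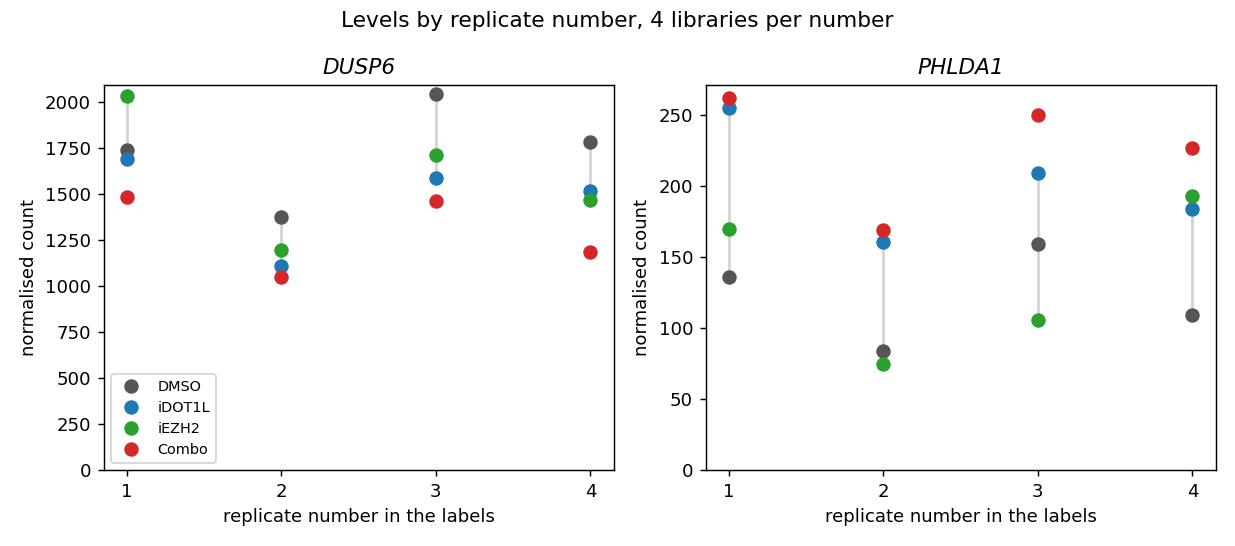
Normalised counts of DUSP6 and PHLDA1 (vertical axes, linear, from 0) by the replicate number in the labels, with a grey line over the DMSO, iDOT1L and iEZH2 libraries of each number. Library 2 is the lowest of its group in all 4 groups for both genes; Combo is left out of the lines because its numbers did not meet the pairing check.

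Further feedback genes of the same families were read from a list of 13. Of these, 3 fell in Combo and none rose, where 16% of all genes were called and 8.8% fell, and the median log2 difference of the 13 was -0.17, beside 0.03 over all genes. DUSP7, a cytoplasmic ERK phosphatase related to DUSP6, fell from 3165 ± 470 normalised counts in DMSO (SD, n = 4) to 1781 ± 154 in iDOT1L, 1612 ± 184 in iEZH2 and 1252 ± 128 in Combo. All 12 treated libraries lay below the 4 DMSO libraries. The log2 differences were -0.82 (adjusted p = 0.000161), -0.97 (0.000173) and -1.33 (4.14e-07). The PEA3-group factors related to ETV5 were also lower: ETV1 fell in Combo from 199 ± 80.8 to 56.1 ± 5.58 (-1.73, adjusted p = 0.000484), and ETV4 from 478 ± 39.6 to 335 ± 13.3 (-0.51, adjusted p = 0.00127). ETV4 also fell in iEZH2, to 317 ± 33.5 (-0.59, adjusted p = 0.00211), but was not called in iDOT1L (410 ± 17.9; -0.22, adjusted p = 0.25). ETV1 differed by -1.02 in iDOT1L (adjusted p = 0.0503, or 0.0147 with the block) and by -0.91 in iEZH2 (adjusted p = 0.114, or 0.0338 with the block). In the single treatments 1 of the 13 genes fell in iDOT1L and 2 in iEZH2, or 3 and 4 with the block, and none rose. Over all genes 3.17% fell in iDOT1L and 2.05% in iEZH2, or 6.53% and 5.89% with the block. The iDOT1L count was 2 without DMSO library 3 or iDOT1L library 4.

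**Figure D4:**
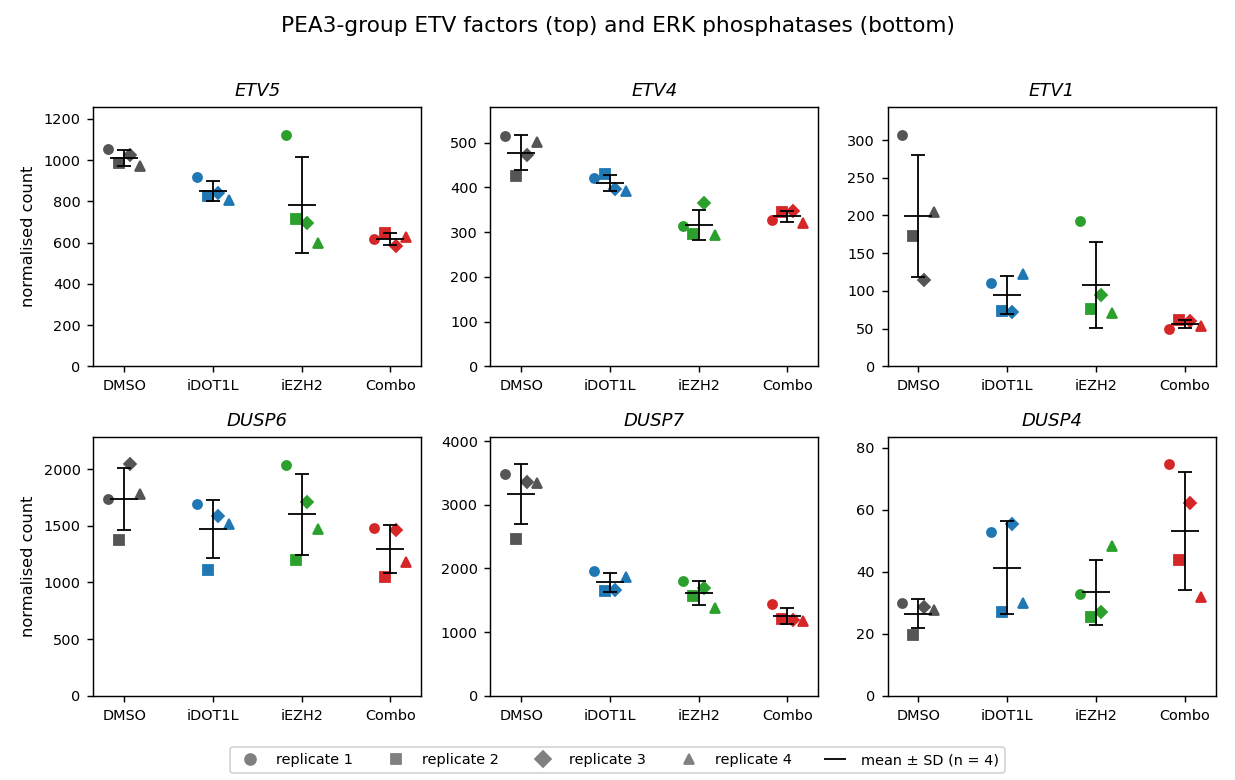
Normalised counts (vertical axes, linear, from 0) of the PEA3-group factors ETV5, ETV4 and ETV1 and of the phosphatases DUSP6, DUSP7 and DUSP4 in 16 libraries, with the mean and SD of 4 per group. The 3 ETV genes and DUSP7 are lower in Combo than in DMSO and DUSP4 is higher, in a comparison that called 16% of all genes. DUSP6 overlaps between these groups. The share of all genes without overlap was not counted.

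Upstream of the feedback genes, the receptor FLT3 fell in all 3 treatments, from 9243 ± 1167 normalised counts in DMSO to 6139 ± 1344 in iDOT1L (-0.61, adjusted p = 0.0105), 5278 ± 859 in iEZH2 (-0.82, adjusted p = 0.00232) and 3464 ± 352 in Combo (-1.41, adjusted p = 1.23e-06). Of the 15 receptors and ligands 3 rose and 2 fell in Combo; this count and those of the other lists stand beside 7.22% of all genes that rose and 8.8% that fell. KIT, a related receptor tyrosine kinase, rose from 33.6 ± 23.0 to 119 ± 22.8 (2.00, adjusted p = 0.00158). NRAS, which codes for a RAS protein, was 1.24-fold lower in Combo (-0.31, adjusted p = 0.0245), a call lost under quantile normalisation (-0.20, adjusted p = 0.125) and without Combo library 3 or 4 or DMSO library 1 or 2 (up to 0.0947). Of the 17 RAS proteins and regulators of RAS, 2 rose and 3 fell in Combo; NF1, which codes for the GTPase-activating protein neurofibromin that SPRED proteins bind, was 1.55-fold lower (-0.63, adjusted p = 0.00616). Of 15 adaptors and exchange factors 1 rose and 6 fell. The 1 that rose, the exchange factor RASGRP2, went from 791 ± 93.8 to 1798 ± 327 (1.17, adjusted p = 3.63e-05). Among the 6 that fell were DOK2 (-0.41, adjusted p = 0.00486), GAB2 (-0.52, adjusted p = 0.00558) and SHC1 (-0.38, adjusted p = 0.00842). For SHC1, 14.0% of its transcript words also occur in other genes. Of the 15 RAF, MEK and ERK kinases, scaffolds and effectors 1 rose and 4 fell, among them the ERK effectors MKNK2 (-0.57, adjusted p = 0.000592) and RPS6KA1 (-0.35, adjusted p = 0.00487); under quantile normalisation 1 rose and 2 fell, and RPS6KA1 was no longer called (-0.24, adjusted p = 0.0741). Without DMSO library 1 the calls went to 4 adaptors and exchange factors, 3 RAS proteins and regulators and 2 kinases. They also went to 4 adaptors without Combo library 1 or 4, to 3 RAS proteins without Combo library 4 and to 3 kinases without Combo library 1.

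The same lists were read in the single treatments. In iDOT1L against DMSO 1 receptor or ligand rose and 1 fell, 2 adaptors or exchange factors rose, 1 RAS protein or regulator fell and 2 kinases rose, beside 3.08% of all genes that rose and 3.17% that fell. In iEZH2 against DMSO 1 receptor or ligand rose and 2 fell, 3 adaptors or exchange factors, 1 RAS protein or regulator and 2 kinases fell, beside 1.3% of all genes that rose and 2.05% that fell. With the replicate block the receptors and ligands called in iDOT1L went to 8 (6 higher, 2 lower) and the RAS proteins and regulators to 4 (1 higher, 3 lower), with 5.69% of all genes higher and 6.53% lower. In iEZH2 the adaptors and exchange factors went to 6 (1 higher, 5 lower), the kinases to 5 (1 higher, 4 lower) and the RAS proteins and regulators to 2 (both lower), with 3.87% of all genes higher and 5.89% lower. The 2 kinases that rose in iDOT1L, RPS6KA2 and RPS6KA3, both effectors of ERK, were not called when only the 2 groups were fitted (adjusted p = 0.0794 and 0.0501). Most of these small counts moved when 1 library was left out. In iDOT1L the receptors and ligands called were 4 without DMSO library 1 (and 4 under quantile normalisation), the RAS proteins 0 without DMSO library 2, and the adaptors 1 without DMSO library 1 or 3 or iDOT1L library 1, 3 or 4 (and 1 when only the 2 groups were fitted). The kinases called in iDOT1L were 0 to 1 without any one library except iDOT1L library 4. In iEZH2 the receptors and ligands called were 1 without DMSO library 1, 3 or 4 or iEZH2 library 2, 3 or 4. The adaptors called in iEZH2 were 1 without DMSO library 1 or iEZH2 library 3, and the RAS proteins 0 without DMSO library 1, 3 or 4 or iEZH2 library 2 or 3.

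Genes that respond to ERK but are not counted as feedback genes were read from a list of 19. Of 18 tested, 7 fell in iDOT1L, 5 in iEZH2 and 8 in Combo, and none rose in any of these comparisons. Over all genes 3.17%, 2.05% and 8.8% fell. The iEZH2 count was 3 without DMSO library 1 or 3 or iEZH2 library 4. Their median differences were -0.65, -0.42 and -0.57, beside -0.15, -0.12 and -0.00 for the 10 feedback genes. EGR1, an immediate early transcription factor, fell from 184 ± 81.3 normalised counts in DMSO to 20.7 ± 13.5 in iDOT1L (-3.16, adjusted p = 8.14e-05), 54.0 ± 24.2 in iEZH2 (-1.79, adjusted p = 0.0192) and 15.6 ± 4.73 in Combo (-3.42, adjusted p = 1.1e-05). The iEZH2 call was lost without DMSO library 1 or 3 or iEZH2 library 4 (adjusted p up to 0.0823). JUNB, a subunit of AP-1, fell from 2785 ± 326 to 1757 ± 130, 1750 ± 195 and 1501 ± 136 in iDOT1L, iEZH2 and Combo (adjusted p = 0.000385, 0.00104 and 6.19e-06). Each of the 4 JUNB libraries of every treatment lay below all DMSO libraries, and 12.8% of its 31-base words occur in other transcripts on the opposite strand. PLAUR, the urokinase receptor, fell from 945 ± 71.0 to 695 ± 75.9, 547 ± 56.7 and 546 ± 49.7 (adjusted p = 0.0128, 0.000378 and 2.85e-05). Whether the list of ERK-responsive genes and the feedback genes differ as groups was not tested.

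Over the 16 libraries, the gene whose log2 level followed a feedback gene most closely, out of 11185 genes searched, was TOX for PHLDA1 (Pearson r = 0.97, Spearman rho = 0.97) and RAB43 for ETV5 (r = 0.95, rho = 0.94). For DUSP6 the 3 nearest were BTG2 (r = 0.92, rho = 0.87), PPP2R5C (r = 0.91, rho = 0.90) and CYTIP (r = 0.90, rho = 0.88). DUSP5 was nearest to CXXC5 (r = 0.90, rho = 0.88). For SPRY4 the nearest were MAPK14 (r = 0.89, rho = 0.83), PITPNM1 (r = 0.86, rho = 0.88) and CCDC136 (r = 0.86, rho = 0.76), and for DUSP4, which had the widest range of group means (0.92), those near it included TBXAS1 (r = 0.84, rho = 0.91) and PRDM1 (r = 0.83, rho = 0.86). The other 4 genes had no neighbour above r = 0.85: PMPCB for SPRY1 (0.85), BMPR2 for SPRED1 (0.85), SINHCAF for SPRY2 (0.83) and BTBD8 for SPRED2 (0.83). These values describe likeness over libraries that share 4 groups and 4 replicate numbers, and each is among the highest of many.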

How the data were processed

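RNA-seq libraries (2 x 150 bases, paired) of 4 groups of 4 were processed by the authors with kallisto and DESeq2 against hg38, per the submitters' processing notes. The sources used here do not give versions or the transcript annotation. The authors deposited log2 values that they had scaled between libraries and variance-stabilised, with the same floor (6.281) for a count of 0 in every library. The transformation was inverted to normalised counts. Afterwards 65.9% to 69.2% of low values lay within 0.1 read of a whole number, so depth is an estimate and no count model was used. Of 22445 IDs 20784 matched GENCODE v29, the source of symbols and positions. The extraction protocol mentions a sort that the treatment text does not, and the latter is taken as the design.

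The 22331 genes that exceeded a normalised count of 1 in 4 or more libraries were fitted with limma 3.58.1 (R 4.3.3; trend and robust moderation) on log2(normalised count + 1), with 4 group means and 12 residual degrees of freedom. P-values were Benjamini-Hochberg adjusted per comparison, and log2 differences are on this scale, which understates changes of low genes. Pearson correlations between libraries were 0.982 to 0.996 over 120 pairs, and no library was a copy of another. For the pairing, deviations from group means were correlated between same-numbered libraries over 12270 genes. The correlations were 0.109 to 0.5 for iDOT1L and DMSO, 0.198 to 0.581 for iEZH2 and DMSO and 0.113 to 0.639 for iDOT1L and iEZH2. Each lay above 0.1, so the block is given beside those comparisons. Differently numbered libraries were not correlated as a reference, and the lowest values, 0.109 and 0.113, lay close to 0.1. Alternatives were the deposited log2 values, a pseudocount of 4, a mean of at least 10, no filter, quantile normalisation, only the groups compared, the replicate block and leaving out each library. The fit was tested on simulated data. Members and lists were chosen with earlier results of these data known. Besides the 10 genes, the text names FLT3, EGR1 and NRAS and, per list and comparison against DMSO, some of up to 4 called genes with the lowest adjusted p and a mean of at least 10, and the nearest neighbours among genes with a mean of at least 50. Some genes taken by this rule are not reported here.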

Additional observations from a re-analysis of the deposited data

Results flagged for a closer look

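SPRY2 in iEZH2 library 4, at 620 normalised counts, stood apart from the other 3 iEZH2 libraries (721, 728 and 737): its gap to the nearest was 0.858 of the group's range, above Dixon's 95% critical value for 4 samples. It was the 1 value marked among 40 groups of 4 libraries, and chance marks about 1 in 20 groups. Without any one library, SPRY2 in iEZH2 against DMSO was -0.31 to -0.21 on the log2 scale and was not called in limma (adjusted p 0.106 to 0.353).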

How the results depend on the processing

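Of 224 summary counts recomputed under the alternatives, 174 stayed within 1.5 times. With the replicate number as a block, genes called went from 1396 to 2729 (iDOT1L against DMSO), 748 to 2180 (iEZH2 against DMSO), 3579 to 5499 (Combo against DMSO), 577 to 2240 (Combo against iDOT1L), 850 to 2136 (Combo against iEZH2) and 1550 to 3185 (iDOT1L against iEZH2), and feedback genes called to 2, 2, 5, 1, 3 and 3. The Combo libraries did not meet the pairing check (lowest correlation 0.051 with DMSO, 0.036 with iDOT1L and 0.053 with iEZH2). Library 2 of Combo did deviate together with library 2 of the other groups (0.441, 0.394 and 0.481 in the same order). Whether the numbers pair the Combo libraries is therefore not settled. For Combo the block added DUSP6 (-0.42, adjusted p = 0.000566) and SPRED1 (0.0276) against DMSO, ETV5 (0.0152) against iDOT1L, and PHLDA1 (0.00694) and DUSP6 (0.0213) against iEZH2. It changed no other call of the 10 genes than those given here and beside the results. With only the groups compared, genes called were 450 for iEZH2 against DMSO, 511 for Combo against iEZH2 and 1004 for iDOT1L against iEZH2. The count of genes for Combo against iDOT1L stayed within 1.5 times of its 577. Feedback genes called were 1 for Combo against iDOT1L (ETV5, adjusted p = 0.0221), 0 for Combo against iEZH2 and 1 for iDOT1L against iEZH2. Fewer libraries enter these fits. Leaving out 1 library gave 915 to 1279 genes called for iDOT1L against DMSO, 409 to 1046 for iEZH2 against DMSO, 2642 to 3583 for Combo against DMSO, 199 to 567 for Combo against iDOT1L, 493 to 1349 for Combo against iEZH2, 964 to 1802 for iDOT1L against iEZH2 and 0 to 1 for the interaction, with 0 to 1, 0 to 1, 1 to 3, 0 to 0, 0 to 2, 1 to 3 and 0 to 0 feedback genes called. Log2 differences near 0 changed sign when 1 library was left out, none of them called: for iDOT1L against DMSO SPRY1 (-0.39 to 0.02), for iEZH2 against DMSO DUSP6 (-0.25 to 0.00), SPRED2 (-0.14 to 0.02) and PHLDA1 (-0.10 to 0.35), for Combo against iDOT1L SPRED2 (-0.01 to 0.11), for Combo against iEZH2 SPRED2 (-0.14 to 0.02), for iDOT1L against iEZH2 DUSP6 (-0.24 to 0.02), SPRY2 (-0.07 to 0.01) and SPRED1 (-0.03 to 0.10), and for the interaction DUSP4 (-0.13 to 0.27), DUSP6 (-0.19 to 0.07), SPRED1 (-0.05 to 0.11), ETV5 (-0.16 to 0.14) and PHLDA1 (-0.18 to 0.27). No sign changed under the other alternatives, and quantile normalisation moved the median of all genes by less than 0.1. The cause of the lost and gained calls was not tested. DUSP4 and SPRY1, with means of 38.6 and 30.7 normalised counts, had the fewest reads and the widest intervals of the 10; whether depth sets that width was not tested, and PHLDA1, with a mean of 172, had an SE of 0.26 beside 0.30 and 0.34.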
